A study of Mus musculus with 5 samples.

Results

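The genes described here are 10 genes of squamous differentiation in cells of the mouse submandibular salivary gland. They are 7 genes of small proline-rich proteins (Sprr1a, Sprr1b, Sprr2d, Sprr2e, Sprr2f, Sprr2h and Sprr2i), an eighth and more distant one (Sprr3), Cnfn, which encodes the envelope protein cornifelin, and Krt23, which encodes an acidic keratin. All 10 were found by symbol, with the same Ensembl gene identifiers, in the gene list of 31053 genes of the 7-day and tissue libraries and in that of 32285 genes of the 11-day library. They were picked with their levels, ratios and spread over barcodes in these libraries already known. Every value below is therefore a description, and no difference was tested.

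Single-cell RNA-seq was done on 5 libraries of C57BL/6 cells, 1 per group. Mouse salivary gland organoids (mSGOs), grown in Matrigel from dissociated gland cells of 4 animals per library, were left untreated (control), or were given 7 Gy of photons or 7 Gy of protons (plateau) on day 5, and all 3 were harvested on day 7. Freshly isolated gland tissue was the fourth library, and these 4 came from animals of 8 to 12 weeks. Untreated 11-day mSGOs came from other animals and were run separately. Their label gives no age, and the study's methods give 8 to 12 weeks for its mice. All organoids were kept in a medium with EGF, FGF2, insulin, dexamethasone, the kinase inhibitor Y27632, R-spondin1 and Wnt3a, the study used female mice only, and each library was made from 45000 sorted cells that excluded propidium iodide. The cells of the animals behind a library cannot be separated, so intervals at the 95% level cover counting error only and not the variation between animals, cultures or preparations. They do not cover the spread between barcodes either.

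Small proline-rich proteins are short, repetitive precursors of the cornified envelope, the crosslinked protein shell that replaces the plasma membrane in the outermost cells of stratified squamous epithelia. Transglutaminases join them to each other and to loricrin, involucrin and cornifelin. The salivary gland is a secretory epithelium with a duct system and does not normally cornify, but duct cells can take on squamous features after injury and in culture.

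The Sprr genes lie side by side. In the RefSeq annotation of GRCm38.p6, 15 of them span 284.659 kb, from base 92215835 to base 92500493 of chromosome 3, in the gene cluster known as the epidermal differentiation complex. Cnfn is at chr7:25367616-25369724 and Krt23 at chr11:99477973-99493120. The 250 bases before each RefSeq start site were searched on both strands for 6 motifs. The motif of AP-1 was TGANTCA, where N is any base. The octamer was ATGCAAAT, which reads ATTTGCAT on the opposite strand. The TATA box was searched as TATAAA and the ETS motif as CAGGAAG. The GRHL motif was AACNNGTT, and the IRF motif was the element bound by interferon regulatory factors. Windows are shown for the gene with the most UMIs at day 7 (Sprr2f), for a close relative found in few barcodes at day 11 (Sprr2d), for the Sprr gene with the lowest log2(CPM + 1) ratio between days (Sprr2h), and for the pair that differed in opposite directions between days (Sprr1a and Sprr1b). Capitals mark the matches to AP-1, the octamer and TATA.
Sprr2f: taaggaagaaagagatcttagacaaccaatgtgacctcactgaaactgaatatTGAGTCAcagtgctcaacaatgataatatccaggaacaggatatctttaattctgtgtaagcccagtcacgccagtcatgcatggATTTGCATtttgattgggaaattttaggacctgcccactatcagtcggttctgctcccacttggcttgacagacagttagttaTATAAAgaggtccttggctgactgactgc
Sprr2d: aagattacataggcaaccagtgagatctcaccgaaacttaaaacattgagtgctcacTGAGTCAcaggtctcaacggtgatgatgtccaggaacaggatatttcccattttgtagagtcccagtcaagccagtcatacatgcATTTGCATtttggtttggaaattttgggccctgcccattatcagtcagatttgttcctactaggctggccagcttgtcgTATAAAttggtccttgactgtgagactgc
Sprr2h: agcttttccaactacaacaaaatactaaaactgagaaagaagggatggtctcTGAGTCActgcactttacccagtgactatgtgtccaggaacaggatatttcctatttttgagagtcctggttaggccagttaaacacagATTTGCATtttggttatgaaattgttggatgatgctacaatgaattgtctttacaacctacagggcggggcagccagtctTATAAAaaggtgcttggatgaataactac
Sprr1a: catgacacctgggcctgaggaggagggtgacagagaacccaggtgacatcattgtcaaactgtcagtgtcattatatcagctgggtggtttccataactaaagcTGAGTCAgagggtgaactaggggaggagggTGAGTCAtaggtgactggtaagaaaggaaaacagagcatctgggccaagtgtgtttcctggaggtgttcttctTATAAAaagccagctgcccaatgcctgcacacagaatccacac
Sprr1b: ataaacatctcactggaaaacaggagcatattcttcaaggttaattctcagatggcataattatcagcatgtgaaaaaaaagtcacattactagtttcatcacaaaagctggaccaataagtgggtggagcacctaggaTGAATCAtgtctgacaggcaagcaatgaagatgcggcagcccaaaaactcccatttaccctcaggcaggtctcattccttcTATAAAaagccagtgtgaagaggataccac
The windows are chr3:92364937-92365186 for Sprr2f, chr3:92338890-92339139 for Sprr2d and chr3:92385435-92385684 for Sprr2h, all on the plus strand, and chr3:92485882-92486131 for Sprr1a and chr3:92438780-92439029 for Sprr1b on the minus strand.

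The 5 Sprr2 genes described here (Sprr2d, Sprr2e, Sprr2f, Sprr2h and Sprr2i) shared an arrangement of 3 matches. Each had TGAGTCA starting between base -198 and base -193 before the start site, the octamer starting between base -112 and base -108, and TATAAA starting at base -29, and none of these matches overlapped another. Sprr1a had no octamer, had TGAGTCA starting at base -146 and again at base -116, and had TATAAA at base -43. Sprr1b had the variant TGAATCA at base -111 and TATAAA at base -30. Sprr3 held TATAAA at base -33 only, and Cnfn and Krt23 held none of the 6 motifs. Among 32817 promoter windows of the same length, AP-1 was found in 6.75%, the octamer in 1.60%, TATA in 12.4%, ETS in 10.8%, IRF in 2.97% and GRHL in 3.64%. No window of the 10 genes held ETS, IRF or GRHL. The trio was not limited to genes with many UMIs, since Sprr2b and Sprr2k also held it and had between 0.405 and 2.99 CPM in the mSGO libraries. Among the 10 genes, the most alike windows were those of Sprr2d and Sprr2e, with 89.3% identical columns in a global alignment, against 71.1% for Sprr2d and Sprr2f and 50.2% for Sprr1a and Sprr2d.

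Close relatives could lose or exchange reads in counting. In the last 400 bases of the transcripts, no window of 50 bases of 9 of the 10 genes was found in a transcript of another gene, and in Sprr2i 3.13% of the windows were also in the pseudogene Sprr2c-ps. By contrast, all windows of Sprr2a1 and Sprr2a2 were shared with other genes and so were 67.7% of those of Sprr2a3, whose UMIs are therefore uncertain.

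After filtering, the libraries held 6494 control, 16929 photon, 15325 proton, 9484 11-day and 1402 tissue barcodes, with 15837177, 27128566, 24758398, 32102942 and 5925403 UMIs. The 7-day barcodes were shallow, with a median of 899 to 1064 UMIs, against 3026.5 at day 11. Between libraries, 3 to 79 barcode sequences recurred, at most 0.642% of a library. The summed level of 4 basal duct markers was 8393 to 9336 CPM in the 7-day libraries, 3677 at day 11 and 7.43 in tissue, and that of 5 luminal duct markers was 2476 to 3279 CPM in the mSGOs and 408 in tissue. The 7 acinar markers summed to 7474 CPM in tissue and to 9.01 to 122 CPM in the mSGOs.

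Levels are given in CPM, the UMIs of a gene per 1000000 UMIs of its library. The 10 genes together made up 0.505% of all UMIs in control mSGOs, 0.522% after photons, 0.408% after protons, 0.263% at day 11 and 0.00326% in fresh tissue. UMIs were counted from transcript 3′ ends and not divided by length. In the 7-day libraries Sprr2f held 63.9% to 66.4% of the UMIs of the set and Sprr1a 11.4% to 13.0%. At day 11 the set was almost a single gene, since Sprr1a held 92.0% of its UMIs. In fresh tissue Krt23 was the only one detected in the 1402 barcodes kept of 13547 deposited, and 5 UMIs of Sprr1a lay in barcodes that the filters removed.

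**Figure D1:**
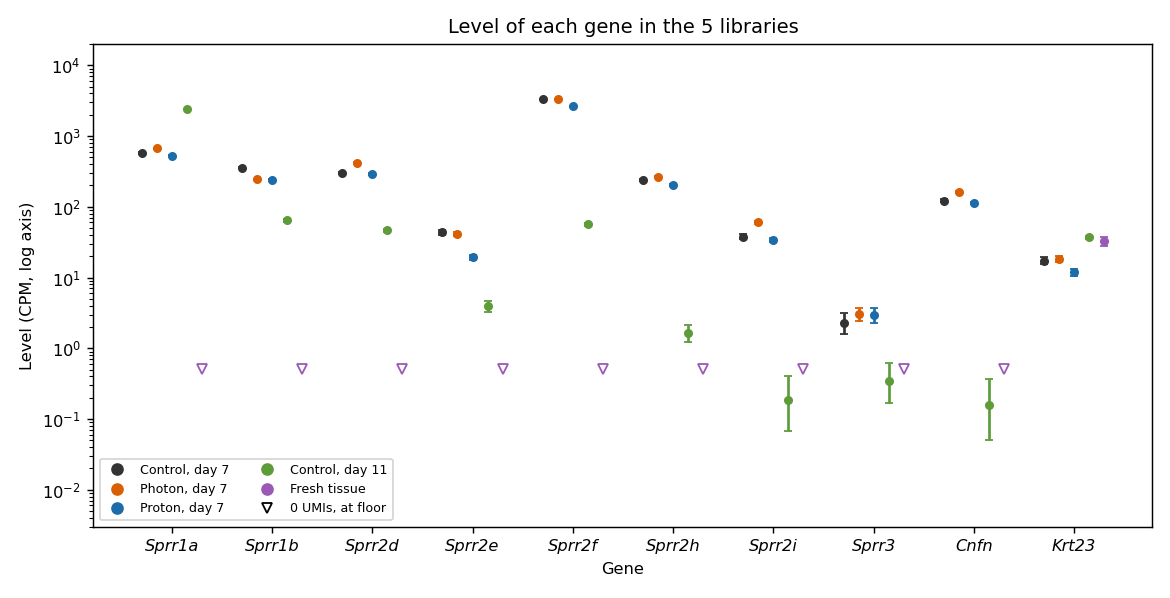
Level of each gene (x axis) in CPM (log y axis) in the 5 libraries. Points are 1 library each, bars are exact Poisson 95% intervals, and open triangles stand for 0 UMIs and sit at the floor of 3 counts. The 7-day libraries lie near each other, with Sprr2e after protons the farthest below control, whereas day 11 lies above them for Sprr1a and Krt23 and below them for the other 8 genes.

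Among the Sprr2 genes, Sprr2f had 3354 CPM in control mSGOs (Poisson interval 3325 to 3382), 3338 after photons, 2631 after protons, 56.5 at day 11 and 0 in tissue. Sprr2d had 299, 422, 291, 46.8 and 0 CPM in the same order. Sprr2h had 241, 266, 205, 1.65 and 0 CPM. Control and photon mSGOs could not be told apart for Sprr2f by counting error, and control and proton mSGOs could not for Sprr2d. The remaining 2 were scarcer. Sprr2e had 43.6, 41.5, 19.3, 3.96 and 0 CPM, and Sprr2i had 37.9, 60.7, 34.1, 0.187 and 0 CPM. In each of the 5 Sprr2 genes all 7-day mSGOs were above day 11, and no UMI was counted in tissue, where the floor of 3 counts is 0.506 CPM. Sprr2i at day 11 rests on 6 UMIs.

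The Sprr1 genes did not follow that order. Sprr1a, a stress-inducible envelope precursor, had 577 CPM in control mSGOs (interval 566 to 589), 670 after photons, 530 after protons, 2417 at day 11 and 0 in tissue. Sprr1b had 359, 244, 238, 64.3 and 0 CPM. Sprr1a was thus highest at day 11, whereas Sprr1b was highest in untreated 7-day mSGOs, and its photon and proton values overlapped within counting error.

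Of the other 3 genes, Cnfn had 122, 160, 114, 0.156 and 0 CPM, and was close to absent at day 11 with 5 UMIs. Sprr3, a proline-rich protein of wet squamous epithelia, had 2.27, 3.02, 2.91, 0.343 and 0 CPM, and its 7-day values rest on 36, 82 and 72 UMIs with overlapping intervals. Krt23 had 17.3, 18.2, 11.8, 36.9 and 32.6 CPM, and was the one gene of the set detected in tissue. Its day 11 and tissue intervals overlapped in CPM, whereas with median-of-ratios scaling its log2 ratio to day 7 was 0.039 at day 11 and 2.52 in tissue.

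To describe the response to photons, ratios to control were taken on the log2(CPM + 1) scale. Sprr2i was the only gene of the 10 past 1.5-fold, at 0.66 (interval 0.53 to 0.80), and it stayed past it in 6 of 12 alternative settings. It was at 0.41 with barcodes weighted equally, at 0.44 with barcodes thinned to 1000 UMIs, and at 0.61 without its top barcode in each library, which in the photon library held 120 of 1648 UMIs. Over the 4353 genes that passed the minimum of 200 UMIs and 20 CPM, 4.16% were past 1.5-fold in either direction (2.62% higher and 1.54% lower), and 8 of the 10 genes passed that minimum. Scaled by median-of-ratios size factors, 1.65% were higher and 2.37% lower, Sprr2i was at 0.57 and the only gene of the 10 past 1.5-fold was Sprr1b, at -0.65. Sprr2d (0.50), Cnfn (0.39), Sprr1a (0.22) and Sprr2h (0.14) had intervals above 0. Sprr1b was the only one with an interval below 0, at -0.55 (-0.60 to -0.50). Sprr2f (-0.0067), Sprr2e (-0.067), Krt23 (0.070) and Sprr3 (0.30) had intervals that included 0. The median of the 10 ratios was 0.18, against 0.081 over the genes that passed the minimum.

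After protons, 2 genes were past 1.5-fold and both were lower, against 4.55% of the genes past it in either direction (3.03% higher and 1.52% lower). Sprr2e had 19.3 CPM against 43.6, a log2 ratio of -1.14 (-1.30 to -0.97), and Sprr1b was at -0.59 (-0.65 to -0.54). Sprr2e stayed past 1.5-fold in 11 of 12 alternatives and Sprr1b, which lay near it, in 8. With median-of-ratios scaling 2.53% of the genes were past it as lower, and Krt23, at -0.61, was past it too. Krt23 (-0.52), Sprr2f (-0.35), Sprr2h (-0.23), Sprr1a (-0.12) and Cnfn (-0.10) were lower by less, with intervals below 0. Sprr2i (-0.15), Sprr2d (-0.039) and Sprr3 (0.26) had intervals that reached 0. The median was -0.19, against 0.10 over all genes that passed. Sprr1b was thus lower in both irradiated libraries, and these share their control.

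Protons and photons were then set against each other, a comparison that does not use the control library. All 10 values were lower after protons, and 8 had intervals below 0, counts that were not taken over all genes. Past 1.5-fold were Sprr2e at -1.07 (-1.22 to -0.92), Sprr2i at -0.81 (-0.93 to -0.70) and Krt23 at -0.59 (-0.79 to -0.39), against 0.961% of the genes in either direction (0.526% higher and 0.435% lower). Krt23 did not reach the minimum of 20 CPM behind that share, and of the 8 genes that did, 2 were past 1.5-fold. Krt23 stayed past it in 6 of 12 alternatives, Sprr2i in 10 and Sprr2e in 11. Sprr2d (-0.54), Cnfn (-0.49), Sprr2h (-0.37), Sprr2f (-0.34) and Sprr1a (-0.34) followed. Sprr1b, at -0.040 (-0.090 to 0.011), and Sprr3, at -0.042, did not differ beyond counting error. The median of the 10 was -0.43, against 0.022 over the genes that passed. Over those genes the 5th percentile was -0.255 and the 95th percentile 0.251. All 5 Sprr2 genes were therefore less abundant in the proton library, whereas the interval of Sprr1b included 0. These orders depended on the barcodes used. In the 248 photon and 218 proton barcodes with at least 2500 genes, 6 of the 10 values were higher after protons, namely Sprr1a (0.17), Sprr2d (0.38), Sprr2f (0.068), Sprr2i (1.23), Sprr3 (2.42) and Cnfn (1.54), and 3 of them were past 1.5-fold, against 2.42% of genes. The median over genes was 0.015 in these barcodes. Single barcodes held 50 of the 99 proton UMIs of Sprr2i, 337 of the 523 of Cnfn and 19 of the 26 of Sprr3 there. Without the top barcode of each gene in both libraries, Sprr2i was at 0.45, Cnfn at 0.31, Sprr1a at -0.033 and Sprr2f at -0.13. Against the 193 control barcodes of that kind, Sprr2e after protons was at 0.080, with 21 of its 52 proton UMIs in 1 barcode. It was at -0.36 without its top barcode in each library. Against the same control barcodes, 5 genes were over 1.5-fold higher after photons and 5 after protons, against 3.72% and 4.73% of genes. These counts include Sprr3, which had 0 UMIs in those control barcodes. After photons they include Krt23, which was at 0.48 and under 1.5-fold without its top barcode in each library.

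**Figure D2:**
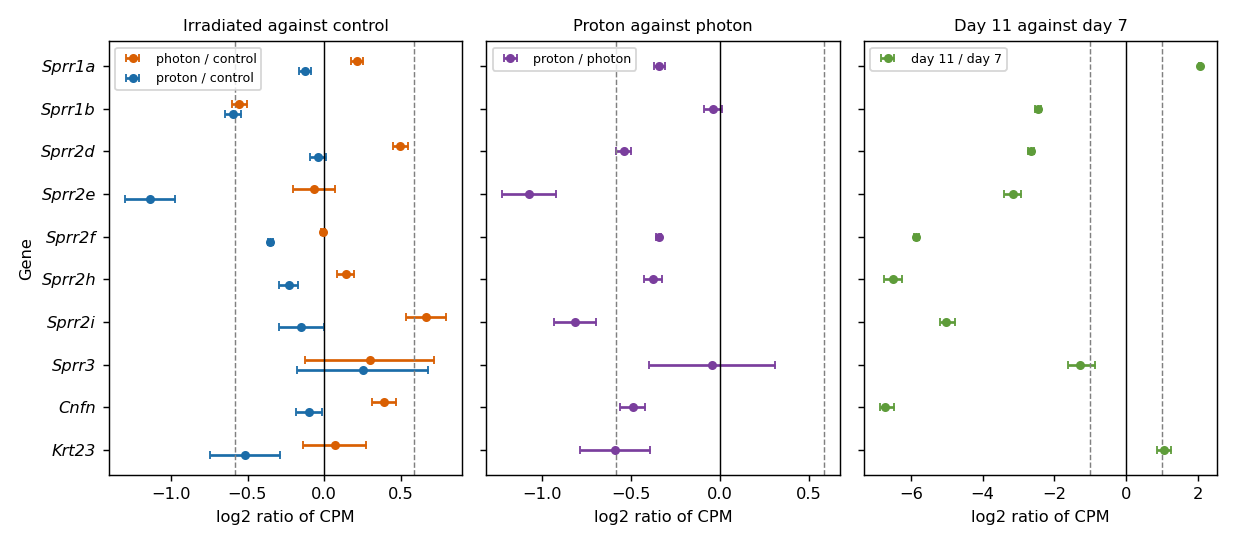
Log2 ratio of CPM (x axis) for each gene (y axis) in irradiated against control mSGOs, protons against photons, and day 11 against day 7. Points are ratios of 1 library to 1 library, bars are conditional exact binomial 95% intervals, and dashed lines mark 1.5-fold in the first 2 panels and 2-fold in the last. All 10 proton to photon values lie below 0, and Sprr1a and Krt23 alone lie above 0 at day 11.

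The 7-day barcodes were not of one kind, and their make-up differed between libraries. Barcodes with at least 5000 UMIs were 17.3% of the control, 4.70% of the photon and 5.70% of the proton library, and those with a share of at least 1% of Malat1, a transcript retained in the nucleus, were 16.0%, 9.36% and 8.96%. The part of these differences in the ratios was not tested, but each ratio was taken again within 4 classes of UMI number and 3 classes of Malat1 share. Against photons, Sprr1a and all 5 Sprr2 genes were lower after protons in all 7 classes, each with an interval below 0. With both limits at once, in barcodes of at least 2000 UMIs with 0.1% to 1% Malat1 (762 photon and 318 proton barcodes), Sprr1a was at 0.12 (-0.044 to 0.27) and the interval of Sprr2e included 0, while the other 4 were lower. Sprr2e ranged from -1.54 to -0.67 over the 7 classes, Sprr2i from -1.31 to -0.28 and Sprr2f from -0.47 to -0.26. Cnfn was lower in 5 classes only and was at 0.0029 (-0.11 to 0.12) in barcodes with at least 1% Malat1. Sprr1b was lower than control in all 7 classes after photons (-0.72 to -0.46) and after protons (-0.79 to -0.44).

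Sprr1a depended on the class. In barcodes with at least 1% Malat1 it had 754 CPM in control, 1153 after photons and 964 after protons, so both irradiated libraries were above control there. In barcodes under 0.1% Malat1 it had 504, 473 and 297 CPM, and both were below. Sprr2e crossed over in the same way after photons, with 35.1 CPM in control and 61.9 after photons at 1% Malat1 or more, but 61.5 and 35.0 CPM under 0.1%. After protons it was the lowest of the 3 in every Malat1 class, at 16.1 to 22.0 CPM. Sprr2d and Cnfn were higher than control after photons in all 7 classes.

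**Figure D3:**
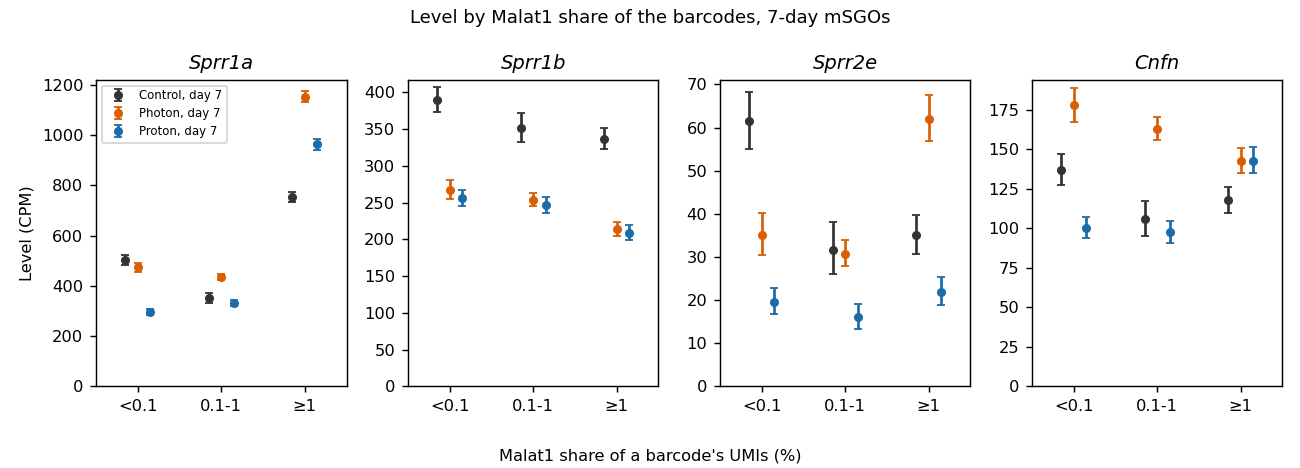
Level (CPM, y axes from 0) of 4 genes in 7-day barcodes grouped by the share of their UMIs from Malat1 (x axes, %). Points are 1 library each and bars are exact Poisson 95% intervals. Sprr1b in control lies above both irradiated libraries in each class, whereas the order of the libraries for Sprr1a, Sprr2e and Cnfn changes between classes.

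Between day 7 and day 11 of untreated culture, 8 of the 10 genes were at least 2-fold lower and 2 were at least 2-fold higher. Over 6623 genes, 54.8% were past 2-fold in either direction, 5.75% were at least 2-fold lower and 49% at least 2-fold higher, and the median log2 ratio was 0.97. Animals, run, processing software and age of culture changed together here and cannot be told apart. The lowest ratios were those of Cnfn at -6.73 (-6.87 to -6.49), Sprr2h at -6.51 (-6.76 to -6.25), Sprr2f at -5.86 (-5.93 to -5.79) and Sprr2i at -5.04. Sprr2e (-3.16), Sprr2d (-2.64), Sprr1b (-2.46) and Sprr3 (-1.28) were lower by less. Sprr1a was higher, at 2.07 (2.04 to 2.10), and so was Krt23, at 1.06 (0.88 to 1.24). Scaling by median-of-ratios size factors moved the median of all genes from 0.97 to -0.060, with 21.9% of genes higher and 20.9% lower, and with it Sprr1a to 1.01 and Krt23 to 0.039. The 2-fold call of Krt23 was kept in 5 of 12 alternatives and that of Sprr1a in all 12. In barcodes with at least 2500 genes the genes at least 2-fold lower were 5 and not 8, beside 5% of all genes lower and 35.6% higher. Sprr2d was at -0.094 and Sprr2e at -0.073 there, and Sprr3 had 9 UMIs in 3 barcodes at day 11 and 0 at day 7, with overlapping intervals. Sprr1a and Sprr1b therefore differed by opposite signs. Within the 7 barcode classes Sprr1a was higher in all, at 1.16 to 2.79, and the other Sprr genes described here and Cnfn were lower in all, although only for Sprr1b, Sprr2d, Sprr2f, Sprr2h and Cnfn was every interval below 0. Krt23 was higher in 6 classes, with 5 intervals above 0.

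The Sprr2 genes were not uniformly lower at day 11. In control 7-day mSGOs Sprr2f had a UMI in 88.8% of barcodes. At day 11 its 1814 UMIs lay in 64 of 9484 barcodes, where 1623 barcodes would be expected from the depth of each barcode. A single barcode held 437 of them (24.1%), and 3 barcodes held 50%. Sprr2d behaved alike, with 1503 UMIs in 66 barcodes and 487 of them (32.4%) in 1, and the same barcode had the most UMIs of both genes. Sprr2e had 127 UMIs in 20 barcodes. In the opposite pattern, the 77579 UMIs of Sprr1a lay in 7677 barcodes (80.9%), and 1450 barcodes were needed to hold 50% of them.

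The barcodes that held Sprr2 transcripts at day 11 were examined further with a minimum chosen after their values were seen, at least 10 UMIs of Sprr2d and Sprr2f together. There were 25 such barcodes, 0.264% of the library, and they held 96.6% of its Sprr2f and 93.3% of its Sprr2d UMIs. The minimum itself makes Sprr2f high in them, and its 7674 CPM is given beside the 5923 CPM in the 1096 barcodes of control 7-day mSGOs that reach the same minimum. Sprr2e was at 486 CPM against 0.502, and Krt23 at 1371 CPM (1223 to 1532) against 27.4. Sprr1b was at 276 CPM (212 to 353) against 62.7. Sprr1a was not higher, at 1857 CPM (1685 to 2043) against 2421.

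Genes outside the set, also picked after their values were seen, differed too between these 25 barcodes and the rest. Krt13, a keratin of non-cornified stratified epithelia, was at 5528 CPM against 56.0, and Krt6a, a keratin of activated epithelium, was at 2979 against 95.5. Fabp5, a fatty acid carrier of keratinocytes, was at 12077 against 1773, and the protease inhibitor gene Spink5 at 736 against 18.9. For a pair of envelope precursors the interval included the rest. Involucrin (Ivl) was at 4.38 CPM (0.11 to 24.4) against 12.1 and loricrin (Lor) at 8.76 (1.06 to 31.6) against 2.45. In the control 7-day barcodes with the same minimum Ivl was lower, at 3.63 (2.35 to 5.36) against 14.2. Lor was higher in those, at 10.9 (8.57 to 13.7) against 6.59. Of the basal keratins, Krt5 was at 2050 against 1015, Krt15 at 1205 (1066 to 1356) against 830 and Krt14 at 1502 (1348 to 1670) against 1653. These intervals do not cover the spread between the 25 barcodes. Krt15 had a UMI in 14 of them, with 86 of its 275 UMIs in 1, and Krt13 in 20, with 322 of 1262 in 1. Of the luminal keratins, Krt7 was at 2195 (2007 to 2395) against 1050, Krt8 at 285 (220 to 363) against 235 and Krt18 at 780 (669 to 903) against 940. The basal regulator Trp63 was at 61.3 (33.5 to 103) against 171, and Mki67 and Top2a, which mark cycling cells, had 0 UMIs in them, where 3 counts would be 13.1 CPM, and were at 11.5 and 14.4 CPM in the rest. The barcodes had a median of 8614 UMIs against 3023, a median Malat1 share of 1.90% against 3.22%, and a median mitochondrial share of 1.98% against 2.63%. Whether some are doublets was not tested.

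**Figure D4:**
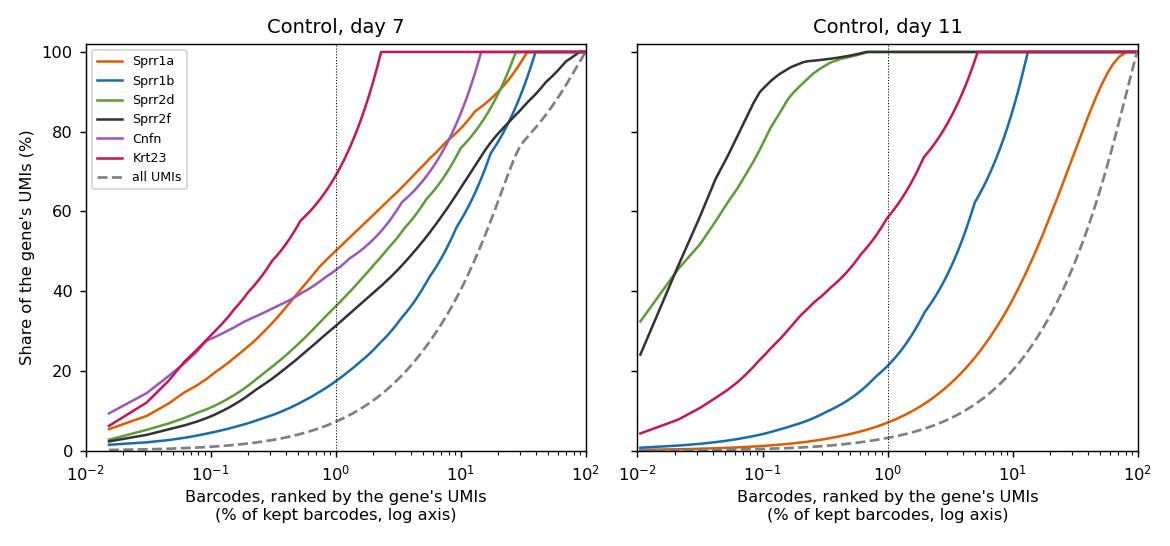
Share of a gene's UMIs (y axes, %) held by the barcodes with the most of them, ranked separately for each line (x axes, % of kept barcodes, log scale), in untreated mSGOs at day 7 and day 11. The grey dashed line ranks barcodes by all their UMIs, the dotted line marks 1% of barcodes, and Cnfn is not drawn at day 11, where it had 5 UMIs. At day 11 Sprr2f and Sprr2d reach 100% within 1% of barcodes, whereas Sprr1a lies closest to the dashed line.

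At day 7 the spread over barcodes differed from gene to gene. The top 1% of control barcodes for each gene (65 barcodes) held 69.0% of the UMIs of Krt23, 52.8% of Sprr2e, 50.1% of Sprr1a, 45.3% of Cnfn, 36.2% of Sprr2d, 31.3% of Sprr2f and 17.4% of Sprr1b. Over genes with at least 200 UMIs the median was 24.8% and the 95th percentile 38.5%, so that Sprr1b lay under the median and Sprr2d and Sprr2f between both. Sprr1a had a UMI in 2206 control barcodes where 3510 were expected from depth, a ratio of 0.63, whereas Sprr1b had a ratio of 0.93 and Sprr2f of 0.94, against a median of 0.957 over the genes. The smallest share of barcodes that held 50% of the Sprr1a UMIs was 1.00% in control (65 barcodes), 0.667% after photons (113 barcodes) and 0.222% after protons (34 barcodes). Its top 1% held 50.1%, 52.3% and 60.6%, beside medians of 24.8%, 32.0% and 31.4% over genes and 95th percentiles of 38.5%, 79.2% and 72.0%. These shares are not adjusted for the number of UMIs. Sprr1a had 9143 to 18184 UMIs in these libraries and Krt23 had 274 in control, whereas the genes compared start at 200. In the photon library a single barcode held 169 of the 1127 UMIs of Sprr2e. In the proton library 1 barcode held 337 of the 2813 Cnfn UMIs (12.0%), and a single barcode held 19 of the 72 Sprr3 UMIs.

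The share of barcodes with a UMI says little for Sprr2f at day 7. It was 88.8% in control, 94.0% after photons and 86.9% after protons. Among 459 control barcodes with at least 3 UMIs of cycling genes, a median of 6132 UMIs deep, it was 94.8%, and after thinning each barcode to 1000 UMIs it was 76.6% there and 77.2% in the others. After photons the thinned share was 71.6% in cycling barcodes and 91.2% in the others, and after protons 62.7% and 83.0%. How far free RNA in the droplets adds to these shares was not tested, so they are not read as shares of expressing cells. At day 11 Sprr1a had a UMI in 16.1% of thinned barcodes with at least 3 UMIs of cycling genes (146 barcodes before thinning) and in 67.4% of the others, at 388 CPM in the cycling barcodes against 2417 in the library. In the 7-day control the level of Sprr2f was also lower in 27 barcodes with at least 3 UMIs of the acinar list, of which 2 of 7 genes were detected, at 604 CPM with a thinned share of 33.3% against 77.5%.

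Across 2564 control barcodes with at least 1000 UMIs, Pearson's r between the log levels of Sprr1a and the 5 Sprr2 genes ranged from 0.20 (Sprr1a and Sprr2i) to 0.46 (Sprr2d and Sprr2f), with 0.24 for Sprr2e and Sprr2i. These barcodes share a library and differ in depth, and the values are given without a test. In the irradiated libraries these pairs had r between 0.027 and 0.20, and r was not taken for pairs of other genes. Of the top 1% barcodes for Sprr2d, 60.0% in control, 58.2% after photons and 51.9% after protons were also in the top 1% for Sprr2f. Of the 36 pairs with enough UMIs, this overlap was lower than control in both irradiated libraries for 23, as for Sprr2d and Sprr2e (50.8%, 28.8% and 28.6%), and higher in both for 7, as for Sprr1a and Sprr2f (49.2%, 57.6% and 53.2%). The remaining 6 pairs went different ways after photons and protons. Pairs of other genes were not counted. The top barcodes were ranked by UMIs in libraries of unlike depth, so these counts are not read as particular to the set. At day 11 r was 0.64 for Sprr2d and Sprr2f and 0.0010 for Sprr1a and Sprr2f, over 9334 barcodes.

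Outside the set, the 8 genes whose log level was most like the summed level of the 10 genes in all 3 7-day libraries were Fabp5, Ly6d, Rps24, Fau, Hspb1, Dmkn, Gsta4 and Rpl32. The smallest of the 3 r values was 0.40 for Fabp5 and 0.26 for Ly6d, a surface protein of stratified epithelia, and between 0.16 and 0.20 for the other 6. For each of the 8 genes r was higher in control than in either irradiated library, as for Rps24 (0.39 in control, 0.20 after photons and 0.24 after protons). At day 11, where the sum is mostly Sprr1a, the closest were Atp1b1, a subunit of the sodium pump (r = 0.25), Itm2b, Wfdc2, Tfcp2l1, a transcription factor of duct cells, and Ly6d (0.21). Tfcp2l1 had 97.6 CPM in control 7-day mSGOs and 1155 at day 11, and Atp1b1 had 19.4 and 627.

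Other genes of the cornification program were set beside the set as lists. Among keratins of suprabasal and activated cells, 5 of 7 that passed the minimum were at least 2-fold lower at day 11, with a median of -3.09, beside 5.75% of all genes lower by that much. Krt16 was at 10.6 CPM against 270, Krt6b at 10.3 against 235, and Krt6a at 117 against 1623. Of 14 cornified envelope proteins and precursors, 6 were at least 2-fold lower and none higher, led by Krtdap (-3.83), Dmkn (-3.59) and Sbsn (-2.87). Of 4 crosslinking, lipid and protease genes 3 were lower, namely Elovl4 (-2.53), Klk8 (-2.25) and Spink5 (-1.70). Among 17 transcription factors of squamous differentiation 6 were lower, with Elf3 at -2.75 and Zfp750 at -2.58, and 2 were higher, with Fos at 1.85. Of 7 basal genes 2 were higher, Itga6 at 1.58 and Trp63 at 1.32, 1 was lower, Krt14 at -1.83, and the median was 0.59, beside 49% of all genes higher and a median of 0.97. The 4 luminal keratins stayed within 2-fold. With median-of-ratios scaling, Itga6 was at 0.52, Trp63 at 0.27 and Fos at 0.80, so that no gene of these lists was 2-fold higher, and the lower ones were 6 suprabasal keratins, 11 envelope genes, 3 crosslinking genes, 9 transcription factors, 2 basal genes and 2 luminal keratins, beside 20.9% of all genes.

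After irradiation at most 2 genes of a list were past 1.5-fold in either direction, beside 4.16% of all genes after photons and 4.55% after protons. Of 4 crosslinking, lipid and protease genes 2 were higher after photons, with a median of 0.37. These were Calml3, a calmodulin-like protein of epithelia, at 0.82 and Spink5 at 0.72, and after protons they were at 0.57 and 0.31. Among envelope genes, Krtdap, a secreted peptide of differentiating keratinocytes, had 600 CPM in control, 339 after photons (-0.82) and 220 after protons (-1.44). Csta1, a cystatin of the envelope, was at 0.77 after photons and 0.53 after protons. Krt10, a suprabasal keratin, was at -0.63 and -0.83. The basal keratin Krt15 was at 1.11 and 1.07, and of the transcription factors Fos was at 0.94 and 0.99 and Hes1, a Notch target, at 0.90 and 1.06. Sprr2a3, the only other Sprr gene with at least 200 UMIs, was at -0.43 and -0.63, with the uncertainty of its shared sequence.

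In fresh tissue no UMI of 9 of the 10 genes was counted in the kept barcodes, and these 9 genes were lower in CPM than in control 7-day mSGOs by at least 2-fold. Of 4254 genes, 83.4% were past 2-fold, 78.3% lower and 5.17% higher. With median-of-ratios scaling 24.1% were lower and 14.3% higher, and Krt23 was at 2.52. Set at a floor of 3 counts over the library, Sprr2f was at least 6624-fold lower, Sprr1a at least 1140-fold, Sprr1b at least 709-fold and Cnfn at least 241-fold, while Sprr3 was at least 4.49-fold lower. These bounds hold for CPM, and with median-of-ratios scaling they were 2077-fold, 358-fold, 222-fold, 75.4-fold and 1.41-fold. By the same floor of 3 counts, 0 among 1402 barcodes allows a share of barcodes with a UMI of up to 0.214%. Krt23 was higher by 0.88 (0.61 to 1.13), on 193 UMIs in 123 barcodes. Among 183 tissue barcodes with at least 3 UMIs of luminal duct markers it had 45.7 CPM (37.7 to 54.9), and among 1162 with acinar markers 32.8 CPM (28.2 to 38.0). It had 17.9 CPM (11.1 to 27.3) in 347 barcodes with immune markers, on 21 UMIs, and 13.3 CPM (4.31 to 31.0) in 103 with endothelial markers, on 5 UMIs, the last of which overlapped the acinar interval. A UMI of Krt23 was found in 29.0% of the luminal duct barcodes (median 3644 UMIs) and in 3.88% of the endothelial ones (median 2815 UMIs). Thinned to 1000 UMIs the shares were 7.10% and 0%, and a barcode could enter more than 1 class.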

How the data were processed

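Single-cell RNA-seq of 5 libraries was analysed from the 10x matrices. The authors deposited raw UMI counts per gene and barcode, with 3.0.1 as software version in the headers of the day 7 and tissue files and 7.0.0 in those of day 11. The submitters' processing notes name Cell Ranger 5 and mm10, whereas the study's methods name GRCm39, and whether intronic reads were counted is not given in the sources used here. Coordinates and promoters were taken from RefSeq on GRCm38.p6, and read sharing from GENCODE transcripts.

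Barcodes with under 200 genes or over 5% mitochondrial UMIs were removed. The methods' limit of 2500 genes was tried in both readings, as a minimum and as a maximum. Doublets were called with Scrublet in scanpy 1.11.5, and where its automatic threshold marked under 0.5% of barcodes the top scores at 0.8% per 1000 barcodes were removed, which took out 378 control, 1355 photon, 2559 proton, 855 11-day and 16 tissue barcodes. The photon library alone kept the automatic threshold.

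UMIs were summed over kept barcodes and given as UMIs per 1000000 UMIs (CPM). Ratios were taken on the log2(CPM + 1) scale, for day 11 over the 30406 genes in both gene lists. This scale understates ratios of low genes. With 1 library per group there is no test, and intervals are exact Poisson, conditional exact binomial or Clopper-Pearson at 95%. Genes were past the fold at 1.5 for irradiation and 2 for day 11 and tissue, and figures over all genes took those that had 200 or more UMIs between the compared libraries and reached 20 CPM in either. A barcode entered a marker class with at least 3 UMIs of its list. The expected number of barcodes with a UMI assumed UMIs distributed by barcode depth. Scripts were tested on simulated counts. Python 3.11.15, numpy 2.4.6, scipy 1.17.1, pandas 2.3.3, Biopython 1.88 and matplotlib 3.10.9 were used.

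The 10 genes and all gene lists were chosen with earlier results of these data known. Other genes were named by rule, namely Sprr genes with at least 200 UMIs, up to 3 genes per list and comparison with the largest ratios, and the 8 (day 7) and 5 (day 11) genes most correlated with the summed set, with the exception of the genes compared in the 25 Sprr2-rich barcodes of day 11. Alternatives were other pseudocounts, scalings, barcode filters, Malat1 and depth limits, thinning, equal weights and removal of the richest barcodes. Removal of the top barcode of each gene, the other scaling of the lists and of the bounds in tissue, levels in barcodes with at least 2500 genes and the split of day 11 barcodes by Sprr2 UMIs were chosen after seeing the data.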

Additional observations from a re-analysis of the deposited data

Results flagged for a closer look

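Of the 10 genes, 3 had log2 ratios against the shared control of opposite sign after photons and after protons, with each interval on its side of 0. How many of all genes meet this rule was not counted. Sprr1a was at 0.22 after photons and -0.12 after protons, Sprr2h at 0.14 and -0.23, and Cnfn at 0.39 and -0.10. The signs depended on the barcodes used. With barcodes thinned to 1000 UMIs Sprr1a after photons was at -0.11. After protons Sprr1a changed sign in 3 of 12 alternatives (up to 1.10), Cnfn in 3 (up to 2.61) and Sprr2h in 1 (0.11), each highest in barcodes with at least 2500 genes. There 1 proton barcode held 337 of 523 Cnfn UMIs, and without the top barcode in each library Cnfn was at 1.46 and Sprr1a at 0.93. With 1 library each, the difference between photons and protons was not tested.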

How the results depend on the processing

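No paired analysis was possible because each group had 1 library, and for the same reason no library could be left out. Over 12 alternatives, 298 log2 ratios stayed within the counting interval of the reported value, 299 moved out of it, and 3 more turned the sign of a gene reported past the fold. In all, 43 had the opposite sign. In barcodes with at least 2500 genes, Sprr2e after protons was at 0.080 against control, Sprr2i at 1.23 in protons against photons and Sprr3 at 1.55 at day 11 against 0 UMIs at day 7. Without the top barcode of the gene in each library, Sprr2e was at -0.36 and Sprr2i at 0.45 in these comparisons. The number of genes past 1.5-fold after photons, 1 as reported, was 0 with a pseudocount of 10 CPM or with barcodes weighted equally, 3 in barcodes with at least 2000 UMIs, and 5 in those with at least 2500 genes or at least 1% Malat1. The share of all genes past 1.5-fold was 4.16% as reported and 2.18%, 3.72%, 5.12%, 6.02% and 4.53% in these settings. After protons it was 2 as reported, 1 with a pseudocount of 10 CPM (2.60% of all genes), without the top 1% of barcodes (4.59%) or without the top barcode of each gene (not run over all genes), and 6 in barcodes with at least 2500 genes (7.33% of all genes). For protons against photons it was 3 as reported and 5 with under 2500 genes, thinned to 1000 UMIs, or without the top 1% of barcodes, all lower, with at most 1.24% of all genes past it. The cause of these differences was not tested. Counts in either direction were 8 to 10 for day 11 and for tissue, but at day 11 the lower genes ranged from 5 to 8 and the higher from 1 to 3, the highest count with Sprr3. The share of all genes past 2-fold ranged from 40.6% to 57.6% at day 11, with 4.70% to 20.9% lower, and from 38.3% to 91.3% in tissue. Sprr1b stayed below control under each alternative, at -0.65 to -0.49 after photons and -0.69 to -0.53 after protons. Depth limits Sprr3, with 11 to 82 UMIs per mSGO library, and Sprr2i and Cnfn at day 11, with 6 and 5 UMIs.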

Other observations

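A minimum of 10 UMIs of Sprr2d and Sprr2f together, chosen after the values were seen, was also applied at day 7. It was reached by 16.9% of the barcodes in control, 9.36% after photons and 6.56% after protons. They held 76.7%, 47.6% and 48.8% of the Sprr2f UMIs, against 96.6% in 0.264% of the barcodes at day 11. In control these barcodes were deeper, with a median of 5500.5 UMIs against 845, so the minimum selected partly on depth. Within them Sprr1a was at 1010 CPM against 245 in the rest.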
